A study of Rattus norvegicus with 8 samples.

Results

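The intracellular fatty acid binding proteins were followed in rat liver through 8 genes, Fabp1 to Fabp7 and Dbi, out of 19265 genes with a symbol on the array. A probe was taken where the deposited array file gave it one of these names. The genes were chosen from a diet difference already known in these same 8 livers, so their deficient minus control values are given as a description without a test. The livers came from 8 Wistar rats aged 21 days. The 4 control animals (1 male, 3 females) were born to dams on standard food. The 4 deficient animals (2 males, 2 females) were born to dams on food lacking vitamin B12 and folates, given from before pregnancy up to weaning. The diet was that of the dams. The labels do not say which pups were littermates, so errors and p-values reflect only how these particular animals vary.

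Fatty acid binding proteins are small cytosolic proteins of one fold, a barrel of strands closed by a helical lid, that hold long-chain fatty acids and related lipids and carry them between membranes, enzymes and the nucleus. Fabp1 is the main form of the hepatocyte and Fabp2 the form best known from the absorptive cell of the small intestine, where Fabp1 is also made. Fabp3 is the form of heart and skeletal muscle, Fabp4 of fat cells, macrophages and capillary endothelium, Fabp5 of epidermis, Fabp6 of the ileum, where it binds bile acids, and Fabp7 of developing brain. Dbi, also called acyl-CoA binding protein, has another fold and holds the CoA esters of fatty acids. Several of these genes are known targets of PPAR-alpha, a nuclear receptor that binds fatty acids and pairs with RXR on a direct repeat of a short half-site spaced by a single base.

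The promoters of the liver form and the intestinal form are shown because the comparison between these genes is the one the data turn on. Each is the stretch of 250 bases before the transcript start in RefSeq, build GRCr8, plus strand, chr4:104749090-104749339 for Fabp1 and chr2:213724379-213724628 for Fabp2. Capitals mark the only match to the pattern AGNNCANAGNNCA or its reverse complement TGNNCTNTGNNCT, a loose form of the spaced direct repeat.
Fabp1: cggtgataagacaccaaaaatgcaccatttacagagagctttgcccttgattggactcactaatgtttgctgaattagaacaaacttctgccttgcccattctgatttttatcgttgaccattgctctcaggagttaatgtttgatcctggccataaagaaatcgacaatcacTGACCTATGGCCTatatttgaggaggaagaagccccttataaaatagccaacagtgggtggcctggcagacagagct
Fabp2: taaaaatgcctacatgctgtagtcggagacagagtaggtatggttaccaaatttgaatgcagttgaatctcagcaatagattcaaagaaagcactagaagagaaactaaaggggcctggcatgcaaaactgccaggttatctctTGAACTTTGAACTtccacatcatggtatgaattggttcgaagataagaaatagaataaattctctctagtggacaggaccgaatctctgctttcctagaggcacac
The match TGACCTATGGCCT lay from 77 to 65 bases before the Fabp1 start, and TGAACTTTGAACT from 106 to 94 bases before the Fabp2 start. Both matched the reverse complement. The loose pattern was written after both promoters had been read, and on both strands it occurred in 746 of 33469 rat promoters of the same length (2.23%). The stricter repeat AGGTCANAGGTCA or its reverse complement TGACCTNTGACCT, a subset of the loose one, occurred in 17 promoters (0.0508%), neither of these among them. Of the 8 genes, 6 had a promoter in the table, and the windows of Fabp3, Fabp6, Fabp7 and Dbi held no match to either pattern. The letters describe the sequence and carry no measurement of binding.

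Values below are log2 normalized intensities of a gene's probe. They are compared between animals and never between genes, since probes differ in brightness for reasons other than RNA level. Each of the 4 arrays carried 1 control and 1 deficient liver in opposite dyes. Arrays 1 and 3 had the deficient liver in Cy3, and arrays 2 and 4 in Cy5. A within-array ratio is therefore a difference between 2 particular animals. Median spot signals per channel were 152.5 to 299.0 over median backgrounds of 33 to 58, 59.1% to 65.5% of spots were well above background and no spot was saturated. The number of arrays limits the precision. In whole liver, a change in the number of cells making a transcript and a change in the transcript per cell cannot be told apart. All 10 hepatocyte markers examined were measured in these livers.

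Of the 8 genes, 7 were measured and Fabp6 was not above background in any animal. Fabp2, Fabp3 and Fabp7 were higher in all 4 deficient livers than in any control liver, where 11.5% of the 14848 genes with all values had groups that did not overlap, 5.52% with the deficient group higher. Fabp2 differed most, 5.56-fold, then Fabp3, 2.98-fold, and Fabp7, 1.52-fold. Fabp4 was on average higher, Fabp5 lower, and Fabp1 and Dbi about equal, all with overlapping groups. The limma fit over all genes, at an adjusted p under 0.05, called 3 of the 7, all higher, where 11.1% of the 14912 genes tested were called, 4.53% higher and 6.59% lower. Because the diet contrast chose the genes, nothing is read from either count. Their median difference was 0.44, against 0.0095 over all genes tested, and for the same reason nothing is read from it. Fabp7 was no longer called when any 1 control liver, deficient 3 or deficient 4 was left out. It was also not called without array 1 or array 3, with sex as a term, without the array block or from within-array ratios.

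**Figure D1:**
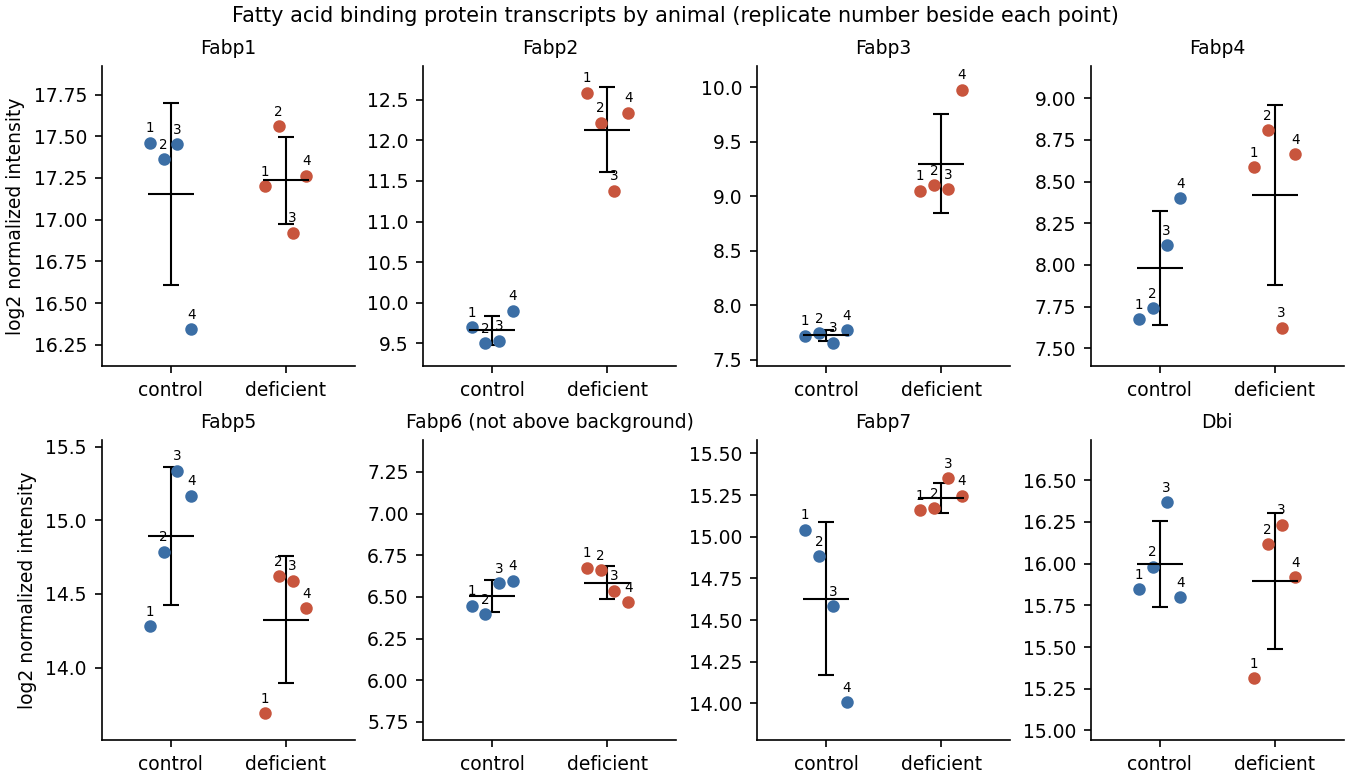
Log2 normalized intensity (vertical axes, a separate range per gene) of the 8 genes in 4 control and 4 deficient livers. Points are animals with their replicate number, and bars are the group mean ± SD. Fabp2, Fabp3 and Fabp7 show no overlap between the groups, control 4 stands low for Fabp1 at 16.34, and Fabp6 was not above background.

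Fabp2, the intestinal form, was even across the control livers and higher in every deficient liver. The probe lies on chromosome 2, 219605027 to 219605086, in the rn4 build of the files. The control livers 1 to 4 read 9.69, 9.50, 9.53 and 9.90, a mean of 9.66 ± 0.18 (SD, n = 4). The deficient livers 1 to 4 read 12.59, 12.22, 11.38 and 12.34, a mean of 12.13 ± 0.52 (SD, n = 4). The lowest deficient liver, number 3, was 1.48 above the highest control, number 4. The difference was 2.48 ± 0.20 (SE), and the ratios within arrays 1 to 4 were 1.69, 3.06, 2.84 and 2.32. It was above 0 on every array, and the array of deficient 3 gave the smallest value. The probe was well above background in all 8 livers.

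Of 12 enterocyte markers, 11 had a probe. Vil1, a microvillus protein, Cdx2, the intestinal transcription factor, Slc5a1, the glucose carrier, Slc15a1, the peptide carrier, and Mep1a, a brush border protease, were not well above background in any liver. The 5 markers that could be tested had a median difference of -0.07 and none was called by limma. Among them, Cdx1 and Alpi were well above background in all 8 livers. Cdx1 differed by 0.12 ± 0.11 (SE) and Alpi by -0.13 ± 0.09 (SE). Krt20, an intermediate filament protein, was well above background in all 8 livers and higher on all 4 arrays, by 0.49 ± 0.16 (SE, adjusted p = 0.0875). Anpep, a membrane peptidase, differed by -0.42 ± 0.21 (SE, adjusted p = 0.239). Each was called in 2 of 12 fits that left out an animal or array. The summed level of the list was 6029 to 7445 in the control livers and 6521 to 7427 in the deficient livers.

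Fabp1, the liver form, did not separate the groups. Its probe lies on chromosome 4 of rn4, 104413796 to 104413855, and was not saturated in any liver. The control livers read 17.46, 17.36, 17.45 and 16.34, a mean of 17.15 ± 0.54 (SD, n = 4). The deficient livers read 17.20, 17.56, 16.92 and 17.26, a mean of 17.24 ± 0.26 (SD, n = 4). Control 4 was the lowest of all, and the other 3 controls lay within the range of the deficient livers. The difference was 0.08 ± 0.21 (SE), less than the spread between animals. The ratios within arrays 1 to 4 were -0.54, -0.25, -0.10 and 1.22, so the only array with Fabp1 higher in the deficient liver was the one carrying control 4. Without control 4 the difference was -0.21, and with sex as a term it was -0.01. With quantile normalization and no loess it was 0.28. The 100 brightest probes, this one among them, had median ratios of -0.38, 0.07, -0.45 and 0.24 on arrays 1 to 4. Those medians were below 0 where the deficient liver was in Cy3 and above 0 where it was in Cy5. The part of this shift in the Fabp1 values was not tested.

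Set against each other, the intestinal form differed from the liver form in its response to the diet by 2.39 ± 0.40 (SE of the fit to 8 livers with the array as a block), which is 5.25-fold. The SE over the 4 within-array values was 0.49. This is a difference of differences, not of levels. Fabp2 exceeded Fabp1 by 2.23, 3.31, 2.94 and 1.099 on arrays 1 to 4. The sign was the same on all 4 arrays, and the smallest value came from the array of control 4, whose Fabp1 was low. As Fabp2 was chosen for its diet difference, no test is given.

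**Figure D2:**
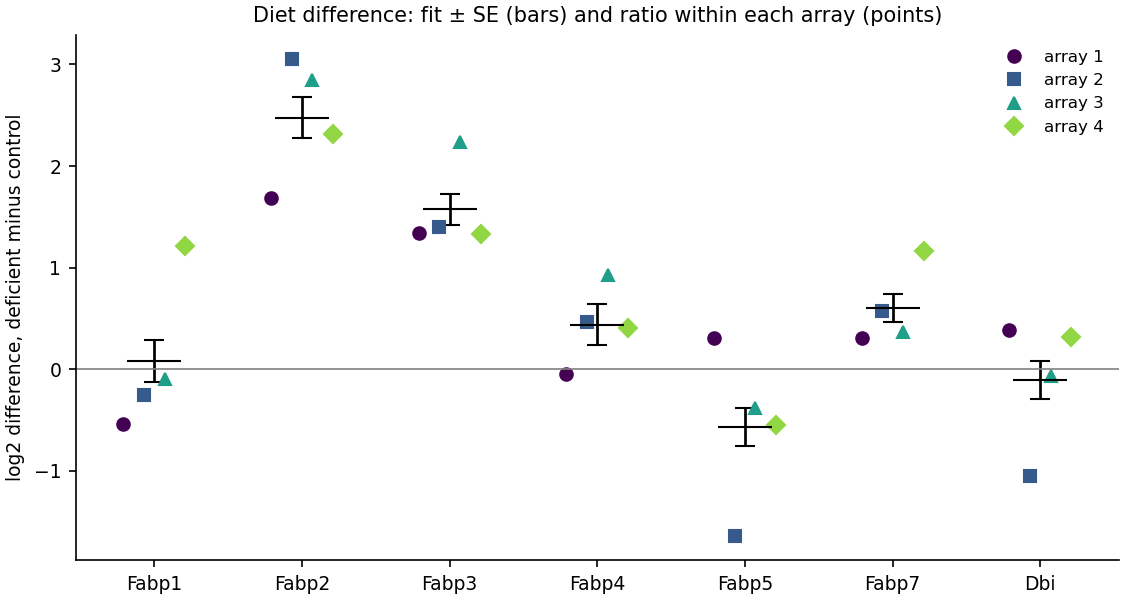
Log2 difference, deficient minus control, for the 7 measured genes (horizontal axis). Black bars are the fitted difference ± SE (n = 4 per group), and points are the ratio within each of the 4 arrays. Fabp2 lies above 1.6 and Fabp3 above 1.3 on every array, while Fabp1, Fabp4, Fabp5 and Dbi have arrays on both sides of 0.

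Fabp3, the muscle form, was the most even member in the control livers. They read 7.72, 7.74, 7.65 and 7.77 (mean 7.72 ± 0.05, SD, n = 4), against 9.05, 9.10, 9.06 and 9.98 in the deficient livers (mean 9.30 ± 0.45, SD, n = 4). Deficient 4 stood above the other 3 deficient livers, and the gap between the groups was 1.28. The difference was 1.58 ± 0.15 (SE), with ratios of 1.34, 1.40, 2.23 and 1.33 within arrays 1 to 4. Without deficient 4 it was 1.35.

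Of 14 markers of skeletal and cardiac muscle, 5 could be tested and limma called 1, where 11.1% of all genes tested were called. That gene was Tnnc2, a fast-muscle troponin, which rose by 2.85 ± 0.19 (SE, limma adjusted p = 0.000472). The summed level of the list was 1018 to 1312 in the control livers and 2039 to 7908 in the deficient livers. The median of the tested markers was 2.22 on array 1, which carried deficient 3, and 0.14, 0.24 and 0.08 on arrays 2 to 4. Tnni2, a troponin of fast muscle, read 11.50 in deficient 3 and 8.58, 8.04 and 8.40 in the other 3 deficient livers. Without deficient 3 the Fabp3 difference was 1.74. Tnnc2 was higher in all 4 deficient livers than in any control. The part of muscle transcripts in the Fabp3 values was not tested.

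Fabp7, the brain form, was well above background in all 8 livers and slightly higher in the deficient ones. The control livers read 15.04, 14.88, 14.58 and 14.01 (mean 14.63 ± 0.46, SD, n = 4), and the deficient livers 15.16, 15.17, 15.35 and 15.25 (mean 15.23 ± 0.09, SD, n = 4). The groups were 0.11 apart, less than the SD of the controls. The difference was 0.60 ± 0.14 (SE), with ratios of 0.31, 0.57, 0.36 and 1.16 on arrays 1 to 4. The largest was again on the array of control 4, without which the difference was 0.43. Among glial markers, Gfap, Olig2 and S100b were not well above background in any liver. The summed glial list was 11700 to 21640 in the controls and 7266 to 7868 in the deficient livers, and its called gene, Aldh1l1, a folate enzyme that hepatocytes also make, fell by 1.11 ± 0.14 (SE, limma adjusted p = 0.00314).

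Fabp4, the form of fat cells, macrophages and endothelium, had overlapping groups. The control livers read 7.67, 7.74, 8.12 and 8.40 and the deficient livers 8.59, 8.81, 7.63 and 8.66. Deficient 3 was the lowest of all 8 and the other 3 deficient livers were the highest. The difference was 0.44 ± 0.20 (SE), with ratios of -0.05, 0.47, 0.92 and 0.41. It was 0.73 without deficient 3, and 0.28 without control 2 or without deficient 4. Of the markers of its usual cells, limma called none of 3 tested for fat cells, 7 for macrophages and 5 for endothelium, and the fat cell genes Lep and Plin1 were not well above background in any liver. The summed fat cell list spanned 17490 to 31300 in the controls and 9524 to 51970 in the deficient livers. It includes Pck1, an enzyme of glucose synthesis that hepatocytes also make, which read 13.78 to 14.72 in the controls and 12.55 to 15.56 in the deficient livers, while Cfd differed by 0.13 ± 0.17 (SE) and Lipe by 0.03 ± 0.08 (SE).

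Fabp5, the epidermal form, was on average lower in the deficient livers. The control livers read 14.28, 14.79, 15.34 and 15.17 and the deficient livers 13.69, 14.62, 14.59 and 14.40. Control 1 lay below 3 of the deficient livers, and the lowest value was that of deficient 1. The difference was -0.57 ± 0.19 (SE), and array 1 went the other way at 0.31 while arrays 2 to 4 gave -1.64, -0.38 and -0.55. It was -0.36 without deficient 1 and -0.82 without deficient 2. The keratinocyte markers Krt5, Krt1 and Ivl were not well above background in any liver. A probe for a predicted gene similar to epidermal Fabp, not a member, differed by -0.27 ± 0.15 (SE).

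Dbi, the acyl-CoA carrier, did not separate the groups. The control livers read 15.85, 15.98, 16.37 and 15.80 and the deficient livers 15.31, 16.12, 16.23 and 15.92. The difference was -0.10 ± 0.19 (SE), and ratios of 0.39, -1.05, -0.06 and 0.32 put arrays on both sides of 0. A second probe, designed on another record of the gene, differed by 0.08 ± 0.14 (SE). Fabp6, the ileal bile acid carrier, read 6.40 to 6.60 in the controls and 6.47 to 6.67 in the deficient livers, all at background, so no fold is given. Of the ileal genes, Fgf19 and Slc51a were likewise not well above background in any liver, and Slc10a2 was in 2. Slc51b was well above background in all 8 livers and differed by 0.05 ± 0.08 (SE).

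Sex, which played no part in choosing the genes, was tested with diet in the model. None of the 7 measured genes was called by limma, none had an unadjusted p under 0.05, and male minus female differences lay between -0.02 and 0.37. Fabp1 was the largest at 0.37 ± 0.23 (SE) and Fabp3 next at 0.35 ± 0.15 (SE), with an unadjusted limma p of 0.0526. Over all genes 0% were called for sex, 0 of 14912, while 408 had an unadjusted p under 0.05. There were 3 males, 1 of them a control, and 5 females. The diet by sex interaction was called for 0 of 14894 genes, with 1797 at an unadjusted limma p under 0.05, and rests on the single male control.

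The genes nearest to Fabp2 and to Fabp1 were found by the root mean square (RMS) difference of log2 values over the 8 livers, each gene centred on its own mean, among 11360 genes. Nearest to Fabp2 were Vnn1, a pantetheinase (RMS 0.19), Igfbp2, an insulin-like growth factor binding protein (0.30), Dusp26, a phosphatase (0.33), Mmd (0.35) and Slc25a4, a mitochondrial ADP/ATP carrier (0.35). Vnn1 read 10.12 to 10.38 in the controls and 11.69 to 12.85 in the deficient livers, and deficient 3 was the lowest deficient liver for Fabp2 and for all 5 of these genes. Fabp3, which also separated the groups, was 0.59 from Fabp2. Nearest to Fabp1 were Acaa1a, a peroxisomal thiolase of fatty acid oxidation (0.12), Acadsb, a mitochondrial acyl-CoA dehydrogenase (0.15), Bpnt2 (0.17), St6galnac4, a sialyltransferase (0.17), and Ldaf1, a lipid droplet protein (0.18). All 5 were lowest in control 4. These distances are descriptions over 8 shared samples. The genes were picked for likeness in these same livers, so nothing is read from their shared low values in deficient 3 or control 4.

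**Figure D3:**
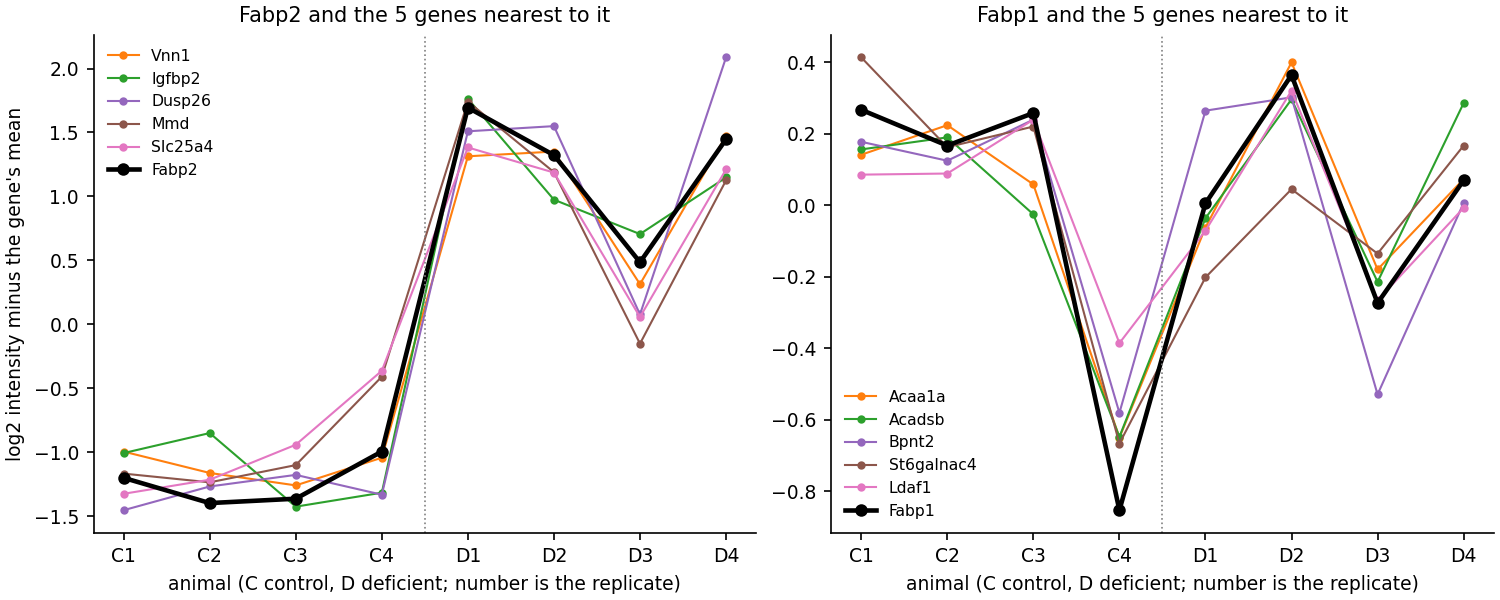
Log2 intensity minus each gene's mean over the 8 livers (vertical axis) by animal (horizontal axis) for Fabp2 and Fabp1, in black, and the 5 genes nearest to each, in colour. The Fabp2 group steps up in the deficient livers with its lowest deficient value in deficient 3, and the Fabp1 group dips in control 4. The genes were picked for this likeness.

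Genes around the binding proteins in fatty acid handling moved in several directions. Over 6 related lists, 68 of 75 genes were tested and limma called 25, of which 19 rose and 6 fell. Over all 14912 genes tested, 11.1% were called, 4.53% higher and 6.59% lower. The lists were chosen with earlier results of these data known, so nothing is read from the counts of calls in them. The count of 25 in these lists was 12 without control 2, 13 without control 3 and 16 without deficient 4. PPAR-alpha targets made up most of the genes that rose, with 14 of 25 higher, none lower and a median of 0.68. Cpt1b, the muscle form of the mitochondrial fatty acid gate, rose by 3.72, Fgf21, a fasting hormone, by 2.31, Vnn1 by 2.23 and Cidea, a lipid droplet protein, by 0.82. Deficient 3 was the lowest deficient liver for each of these 4 genes. The count for this list was 8 without control 2 and 7 without array 3, which carried control 2 and deficient 4, and 19 at most.

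Other lists showed fewer calls by limma, where 11.1% of all genes tested were called. Among fatty acid uptake and activation genes 9 of 12 were tested. Slc27a2, a very long chain acyl-CoA synthetase, rose by 0.77 ± 0.09 (SE), and Slc27a5, the bile acid CoA ligase of liver, fell by 1.73 ± 0.19 (SE), with 1 of its values left out. Cd36, the fatty acid translocase, differed by 0.32 ± 0.09 (SE, adjusted p = 0.0587). Among other intracellular lipid binding proteins 5 of 8 were tested, and Rbp7, a retinol carrier, rose by 0.69 ± 0.17 (SE) and Fabp12 by 0.64 ± 0.17 (SE). Both of these calls were lost when any single control liver or deficient 1 or deficient 4 was left out. Rbp7 was well above background in only 4 of the 8 livers, the fewest the filter allows. Its control livers read 6.40 to 6.89, near background, so its fold is uncertain. Among acyl-CoA binding domain and sterol carrier proteins 5 of 6 were tested, and the one call was Scp2, a peroxisomal sterol carrier, which fell by 0.45 ± 0.11 (SE), a call lost without control 1, 2 or 3 or without deficient 1, 3 or 4.

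Genes of lipoprotein assembly, the use of fatty acids that intestine and liver share, moved both ways. All 8 were tested, 2 rose and 3 fell, where 4.53% of all genes tested were called higher and 6.59% lower. Apoa4, a lipoprotein component, fell by 1.69. Apoc3, an inhibitor of lipoprotein lipase, fell by 1.32. Dgat2, a triglyceride synthase of liver, fell by 0.51, while Dgat1, the synthase best known from intestine, rose by 0.51. The Apoc3 call was lost without control 3, those of Dgat1 and Dgat2 without control 2, control 3 or deficient 4, and that of Dgat2 also without control 1 or control 4. All 16 transcription factors listed as regulators of fatty acid binding protein genes were tested. Limma called 1, where 11.1% of all genes tested were called. That gene was Nr1h4, the bile acid receptor, which fell by 0.82, a call lost without control 1, 2 or 3 or deficient 4. Cebpa differed by -0.48 (adjusted p = 0.0586) and Foxa1 by -0.39 (adjusted p = 0.0565). Ppara itself, named outside the rule for naming genes and after its values were seen, differed by 0.06 ± 0.14 (SE).

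**Figure D4:**
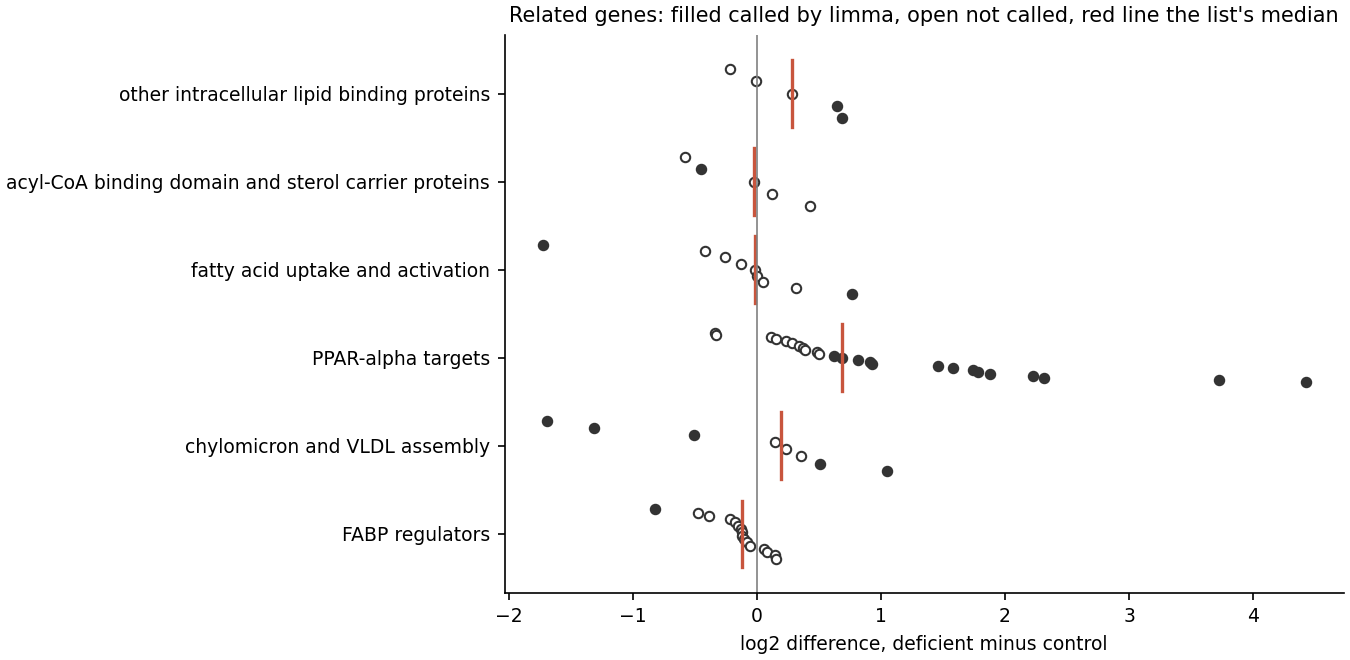
Log2 difference, deficient minus control (horizontal axis), of each tested gene in the 6 related lists (rows). Filled points were called by limma at an adjusted p under 0.05, open points were not, and red lines are list medians. PPAR-alpha targets have 14 filled points above 0 and none below, and the other lists hold 0 to 3 calls in either direction.

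Markers of hepatocytes also differed between the groups, beside every result above. Of 10 hepatocyte markers limma called 1 higher, Apoa2, an apolipoprotein (1.86 ± 0.14, SE), and 4 lower, among them Ttr, Tf and Fgb, plasma proteins made by hepatocytes. Over all genes tested, 4.53% were called higher and 6.59% lower. The list's median was -0.54, and the number lower was 7 without deficient 2 and 1 without array 3. Its summed level was 1387000 to 1646000 in the control livers and 879500 to 1280000 in the deficient livers. The part of this shift in the values of the fatty acid binding proteins was not tested.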

How the data were processed

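RNA from 8 rat livers was hybridized to 4 Agilent 2-colour arrays on 1 slide. The deposited files hold spot intensities from Agilent Feature Extraction, version 10.7.1.1 in the submitters' processing notes. Samples were put on the same array where their deposited files were identical, and each animal's own dye channel was read from its label. Mean signals were background corrected (normexp, offset 50), after leaving out 74 spot values with a local background over 5 times the channel median, then normalized by loess within arrays and Aquantile between arrays. Outlier spots were left out, spots of a probe averaged, and the brightest probe used for a gene. Probes were kept if well above background in at least 4 samples. Differences were fitted on the log2 scale with limma 3.58.1 in R 4.3.3 over all 14912 genes, the array as a random block (correlation 0.42), with Benjamini-Hochberg adjustment, and calls are at an adjusted p under 0.05. The script was tested on simulated data.

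A further table of intensities was normalized by the authors before it was deposited, by steps the labels do not state, and served only as an alternative. Probe positions are rn4, as in the files, and promoters are RefSeq GRCr8. Symbols are those of the files, updated for 3795 of 30367 probes.

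The members, gene lists and background threshold were chosen with earlier results of these data known. Named genes are the members, up to 4 genes per list with the smallest diet p, and the 5 genes nearest to Fabp2 and to Fabp1. Markers at background, and Ppara, were named outside this rule after their values were seen. One gene that this rule names is not reported here. Replicate numbers follow sample order and pair no animals. Alternatives were other background corrections, normalizations and filters, the block, sex as a term, single arrays, and leaving out each animal or array.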

Additional observations from a re-analysis of the deposited data

Results flagged for a closer look

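In the control group, Fabp1 in control 4 stood apart, at 16.34 against 17.36 in the nearest control, a gap of 0.911 of the group's whole range. In the deficient group, Fabp3 in deficient 4 stood apart, at 9.98 against 9.10 in the nearest, a gap of 0.945 of the range. These are 2 of 16 groups of 4 examined, and chance gives about 1 in 20. Over 14848 genes, control 4 was such a low value for 1.22% and a high one for 0.943%, and deficient 4 for 0.256% and 0.29%.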

How the results depend on the processing

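Over 28 settings each, the difference of Fabp2 ranged from 1.69 to 3.06, of Fabp3 from 1.07 to 2.23 and of Fabp7 from 0.31 to 1.16. With high-background spots kept Fabp2 was 2.06 and Fabp3 1.07, with 955 genes called in all, and Fabp3 was 2.04 from Agilent's processed signal. Genes called over the whole array fell from 1657 to 399 without the array block, 811 with sex as a term and 461 from within-array ratios, and the calls in the related lists from 25 to 11 without the block and 13 from ratios. The cause was not tested. Leaving out an animal or array gave 212 to 3546 genes in all and 10 to 35 in the related lists. Leaving out an animal or array gave Dbi differences of -0.45 to 0.24. Array 1 alone gave Dbi 0.39, Fabp1 -0.54, Fabp2 1.69, Fabp4 -0.049 and Fabp5 0.31. Array 2 alone gave Dbi -1.05, Fabp2 3.06, Fabp5 -1.64 and Fabp2 minus Fabp1 3.31. Array 3 alone gave Fabp3 2.23 and Fabp4 0.92. Array 4 alone gave Dbi 0.32, Fabp1 1.22, Fabp7 1.16 and Fabp2 minus Fabp1 1.099. The numbers of the replicates pair no animals, and the array served as the block. Fabp1 was 0.39 in the deposited table. With 4 animals a group, the spread between them limits small differences, and Fabp6 lies at background.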
